A study of Mus musculus with 32 samples.

Results

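The complement components C4b and C3 and the complement regulators Clu, Cd55 and Cd59a were followed through 8 sorted fractions of young and aged mouse bone marrow. They are 5 of the 24421 genes in the count table, were taken from it by symbol, and all 5 were among the 14154 genes that passed the filter on low counts. The genes were chosen with their levels and age differences in these same libraries known. Their values are therefore given as a description with no p-value, and nothing is drawn from how many of them passed a threshold.

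RNA sequencing was performed on hematopoietic stem cells (HSCs), on 4 classes of multipotent progenitor (MPP1 to MPP4), and on 3 oligopotent fractions, the granulocyte-macrophage (GMP), megakaryocyte-erythrocyte (MEP) and common lymphoid (CLP) progenitors. All cells came from female C57BL/6 mice, with no treatment named in the labels, that were 10 weeks old (Young) or 20 months old (Aged), and were separated by flow cytometry on surface antigens. Each of the 16 groups had 2 libraries, 32 in all, with 11237384 to 17723245 counted reads per library. The study describes duplicate sorts from marrow pooled within each age, elsewhere it calls the duplicates biological, and which mice went into each is not given, so the spread between duplicates may be technical.

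Complement is a cascade of plasma and cell surface proteins that tags microbes and dying cells for clearance, calls in phagocytes and can perforate membranes. Recognition molecules such as C1q and the ficolins activate proteases that cleave C4 and C2, the resulting convertase cleaves C3, and deposited C3 fragments drive amplification and the terminal membrane attack complex. Host cells limit the cascade with regulators: Cd55 (decay-accelerating factor) dissociates convertases on the cell surface, Cd59 blocks assembly of the membrane attack complex, and clusterin, encoded by Clu, is a secreted chaperone that binds terminal complement complexes in the fluid phase. Most circulating complement is made by the liver, while myeloid cells make some components locally and hematopoietic cells carry the membrane regulators.

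In the mouse annotation (GENCODE M21 on GRCm38, the assembly also called mm10) all 5 are protein-coding genes. C4b is at chr17:34728380-34743882 on the minus strand, Clu at chr14:65968483-65981547 on the plus strand, and C3 at chr17:57203970-57228136 on the minus strand. Cd55 is at chr1:130439027-130462744 on the minus strand and Cd59a at chr2:104095801-104115354 on the plus strand. Of these, 3 have a related copy next to them, C4a, Cd55b and Cd59b, which matters for counting because a read shared by 2 copies cannot be placed. Of the 60-base windows in the longest coding transcript of C4b, 29.7% also occur in C4a, against 11.6% of those of Cd55 in Cd55b and 2.58% of those of Cd59a in Cd59b. Over aligned coding bases the identity was 96.1% for C4b and C4a, 91.4% for Cd55 and Cd55b and 85.3% for Cd59a and Cd59b.

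A stretch where a read tells the copies apart is shown for C4b and C4a, the pair with the most shared sequence. Below is the 60-base coding window of C4b with the most mismatches to C4a, in exon 21 of C4b at chr17:34735430-34735489 (minus strand, GRCm38). It is written 5′ to 3′ above its match in C4a, and capitals mark the 13 bases that differ between the copies.
C4b: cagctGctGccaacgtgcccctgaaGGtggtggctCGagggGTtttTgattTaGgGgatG
C4a: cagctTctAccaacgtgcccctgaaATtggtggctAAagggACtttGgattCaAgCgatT

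C4a had no count in 31 of the 32 libraries and 19 counts in 1 Aged HSC library, and Cd55b had no count in any. Cd59b had 0 to 35 counts per library. The reads were therefore assigned almost wholly to C4b and Cd55, and mostly to Cd59a. Adding the counts of each copy to its partner changed no call described below.

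Levels are given as CPM, the count scaled to a library total of 1000000 counts, without correction for gene length. In a library of these sizes the floor, set at 3 counts, lies between 0.169 and 0.267 CPM, and a value of 0 cannot be told from a level up to it. The age difference of each gene in each fraction is a log2 fold change of Aged over Young with its standard error (SE), from 1 model of all 32 libraries. A difference is said to pass the threshold, or a gene to be called, at an adjusted p under 0.01 (edgeR quasi-likelihood test with Benjamini-Hochberg adjustment within a fraction). In these bulk samples fewer cells of a type and less RNA per cell cannot be told apart.

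The labelled cell types were checked against the genes of the sorting antigens. Slamf1, which encodes CD150, had its highest means in the 2 HSC groups, 58.7 CPM in Young and 78.2 CPM in Aged. Flt3 was highest in MPP4, at 1130 CPM in Young and 731 CPM in Aged, and Il7r was highest in CLPs, at 151 CPM in Young and 184 CPM in Aged. Fcgr3 was highest in GMPs, at 391 CPM in Young and 415 CPM in Aged. Some antigen genes differed with age within a fraction. Ly6a, which encodes Sca-1, averaged 33.6 CPM in Young CLPs and 201 CPM in Aged CLPs, near Aged MPP3 at 210 CPM and Aged MPP4 at 209 CPM. Il7r averaged 12.8 CPM in Young MEPs and 0.295 CPM in Aged MEPs. Genes used as markers of mature cells were also counted and differed with age in several fractions. Sums of marker lists are given beside the results. Sorted cells may express some of these genes themselves, so a sum does not show that such cells were present. In Young HSCs the endothelial list held Tek at 86.9 CPM and Emcn at 40.4 CPM, with no count of Cdh5 or Flt1. In Young GMPs Csf1r stood at 323 CPM, in a macrophage sum of 437 to 476 CPM. The source of this RNA was not tested. In MEPs a list of 5 B cell genes summed to 135 to 153 CPM in Young and 0.356 to 0.412 CPM in Aged.

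Read by fraction, 19 of the 40 gene-by-fraction differences of the 5 genes passed the threshold, 12 higher and 7 lower in Aged. In HSCs 2 of the 5 genes were called higher and 0 lower, beside 3.74% and 1.66% of all tested genes. MPP1 had 2 higher and 0 lower, beside 4.71% and 2.09%. MPP2 had 1 higher and 1 lower, beside 4.49% and 3.31%, and MPP3 had 1 higher and 2 lower, beside 8.14% and 5.79%. In MPP4 2 were higher and 2 lower, beside 10.3% and 6.27%. GMPs had 2 higher and 0 lower, beside 9.93% and 8.97%. MEPs had 1 higher and 0 lower, beside 9.09% and 11.7%, and CLPs had 1 higher and 2 lower, beside 5.71% and 4.73%. Since the genes were selected on these differences, the shares are given as context only.

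**Figure D1:**
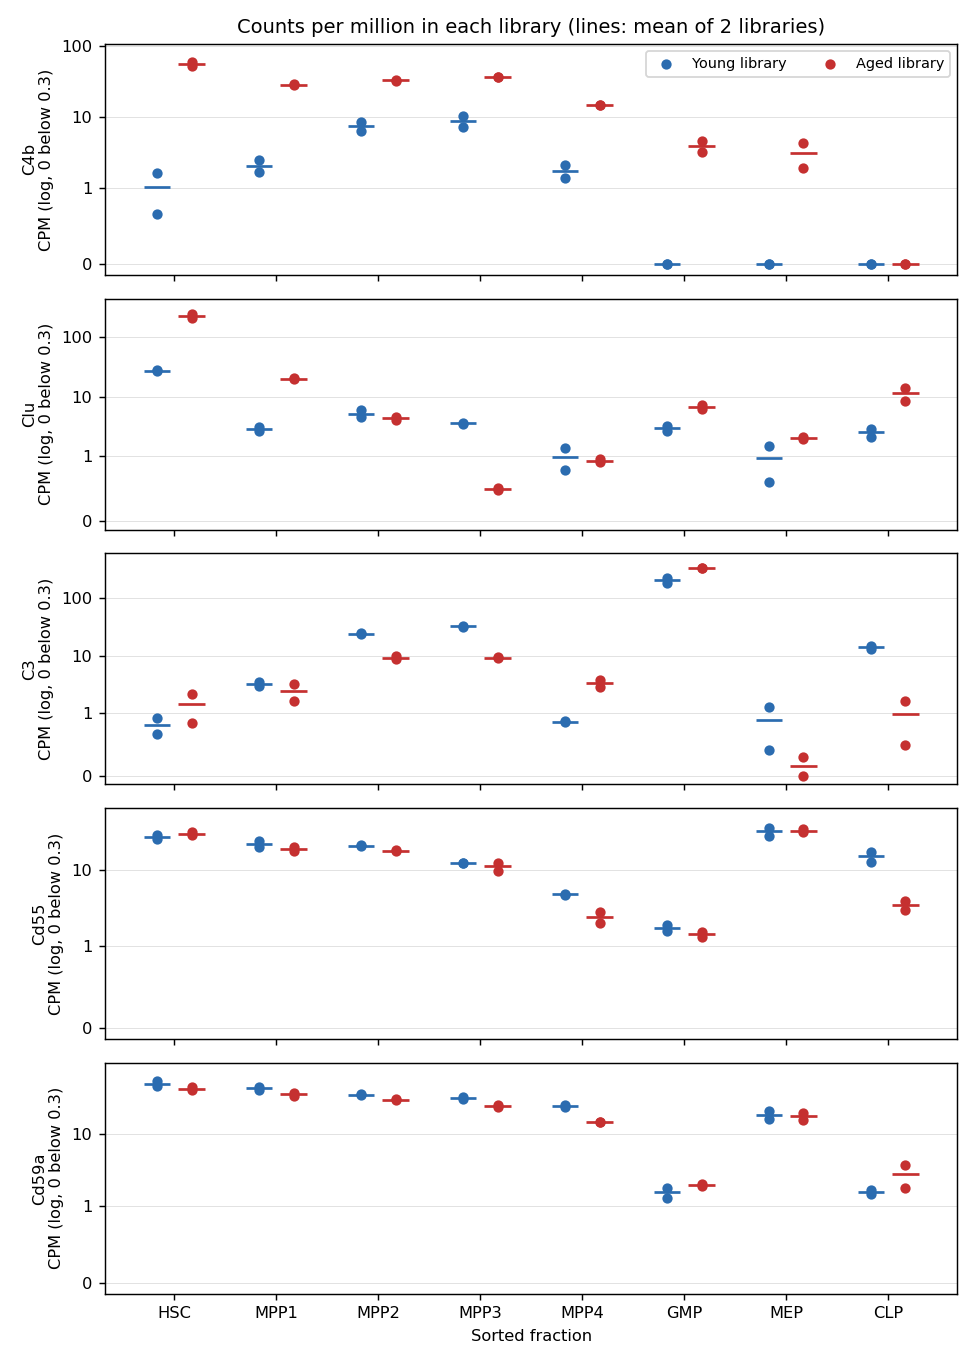
CPM of the 5 genes in each library, by sorted fraction, with 2 Young (blue) and 2 Aged (red) libraries per fraction and a line at each mean. The axis is logarithmic above 0.3 CPM and linear below. C4b was above its Young libraries in every Aged fraction but CLP, Clu was far higher in Aged HSCs (226 CPM on average) than anywhere else, C3 was highest in GMPs at both ages, and Cd55 and Cd59a were lowest in GMPs, with Cd59a also low in CLPs.

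C4b encodes complement C4, whose cleavage product C4b binds covalently to target surfaces and forms part of the classical and lectin pathway C3 convertase. In Young HSCs 18 and 6 counts were found, or 1.60 and 0.422 CPM, and in Aged HSCs 693 and 758 counts, or 58.7 and 52.1 CPM. The MPP1 libraries had 1.66 and 2.44 CPM in Young and 28.7 and 28.1 CPM in Aged. In both fractions the Aged libraries lay far above the Young libraries, with no overlap.

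MPP2 held 8.51 and 6.28 CPM of C4b in Young and 33.4 and 32.1 CPM in Aged. MPP3 held 7.26 and 10.2 CPM in Young and 35.7 CPM in both Aged libraries. MPP4 held 2.11 and 1.36 CPM in Young and 14.5 and 14.4 CPM in Aged. Thus among Young fractions C4b was highest in MPP3 and MPP2, whose libraries overlapped, whereas among Aged fractions HSCs came first, followed by MPP3, MPP2, MPP1 and MPP4, and none of these neighbours overlapped. Cxcl12, a gene of the stromal marker list, was also highest among Young fractions in MPP3 and MPP2, at 75.3 and 62.4 CPM on average. In Aged MPP3 and MPP2, where C4b was higher, Cxcl12 was lower, at 1.34 and 11.5 CPM. Of the 8 genes of that list, 7 were lower without overlap and 0 higher in Aged MPP3. In MPP2 5 were lower and 1 higher, and in MPP4 2 were lower and 1 higher. In HSCs 3 were higher and 0 lower, and in MPP1 2 were higher and 1 lower. The part of stromal cells in these C4b values was not tested.

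The 3 oligopotent progenitors had little or no C4b. Young GMPs and Young MEPs had no count in either library, against 59 and 43 counts in Aged GMPs (4.48 and 3.20 CPM) and 21 and 51 counts in Aged MEPs (1.87 and 4.21 CPM). No CLP library of either age had a count. C4b was therefore found in 7 of the 8 Aged fractions and in 5 of the 8 Young fractions.

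The fitted log2 fold change of C4b was 5.88 ± 0.393 (SE) in HSCs, a 59.0-fold difference, and 3.83 ± 0.349 in MPP1, or 14.2-fold. It was 2.20 ± 0.303 in MPP2, 2.08 ± 0.299 in MPP3 and 3.12 ± 0.357 in MPP4, that is 4.6-fold, 4.24-fold and 8.67-fold. Against a floor of 3 counts per library in Young, the Aged mean of C4b was at least 22.5-fold higher in GMPs and at least 15.6-fold higher in MEPs. These bounds leave out the spread between the Aged libraries. All 7 differences passed the threshold. The size of the HSC value rests on few Young counts, and without the first Young HSC library it was 7.01. When MEPs were fitted alone, on 4 libraries, the MEP difference no longer passed. In HSCs a list of 10 macrophage marker genes summed to 114 to 124 CPM in Young and 65.7 to 66.0 CPM in Aged, opposite in order to C4b. Of these, 6 were lower without overlap and 0 higher, and most of the sum was Axl, at 63.8 CPM on average in Young and 45.6 CPM in Aged. A list of 6 neutrophil marker genes summed to 60.5 to 64.3 CPM in Young and 294 to 308 CPM in Aged, with 5 higher without overlap and 0 lower. The part of such cells in the C4b values was not tested.

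Clu, the secreted chaperone, was most abundant in HSCs. Young HSCs had 27.8 and 27.0 CPM of Clu and Aged HSCs had 207 and 245 CPM, from 2445 and 3567 counts. MPP1 had 3.08 and 2.66 CPM in Young and 21 and 19.5 CPM in Aged. The Aged libraries were above the Young ones in both fractions, and Young HSCs themselves ranked second of the 16 groups, above Aged MPP1.

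In MPP2 Clu stood at 5.94 and 4.54 CPM in Young and 4.65 and 4.06 CPM in Aged, and in MPP4 at 0.594 and 1.36 CPM in Young and 0.890 and 0.794 CPM in Aged. These groups overlapped. MPP3 differed from its neighbours: Young libraries had 48 and 44 counts (3.56 and 3.61 CPM) and Aged libraries had 4 counts each (0.276 and 0.30 CPM), just above the floor. Aged MPP3 was the lowest of the 16 groups for Clu.

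Among oligopotent progenitors, Clu was 3.28 and 2.71 CPM in Young and 6.15 and 7.22 CPM in Aged GMPs. It was 2.13 and 2.93 CPM in Young CLPs and 8.64 and 14.1 CPM in Aged CLPs. MEPs had 0.367 and 1.51 CPM in Young and 1.96 and 2.14 CPM in Aged. The Aged libraries were above the Young ones in all 3 fractions, with MEPs resting on 6 to 26 counts per library.

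Fitted differences of Clu passed the threshold upwards in HSCs, at 3.09 ± 0.227 on the log2 scale (8.54-fold), in MPP1 at 2.85 ± 0.276 (7.22-fold), in CLPs at 2.18 ± 0.291 (4.52-fold) and in GMPs at 1.11 ± 0.285 (2.15-fold). In MPP3 the difference was -3.55 ± 0.498, an Aged level of 0.0854 times the Young one, and it passed downwards. MEPs at 1.17 ± 0.431, MPP2 at -0.21 ± 0.287 and MPP4 at -0.08 ± 0.508 did not pass, though the MEP difference did without the second Young MEP library. The GMP difference no longer passed without any one of the 4 GMP libraries, and neither it nor the CLP difference passed when the fraction was fitted alone.

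Markers of other cell types moved with some of these differences. A list of 6 megakaryocyte genes summed to 365 to 379 CPM in Young HSCs and 602 to 631 CPM in Aged HSCs, where 3 of its genes were higher without overlap and 3 lower. Most of the difference in the sum was in Vwf, at 241 CPM on average in Young and 441 CPM in Aged, while Gp9 averaged 37.5 and 30.2 CPM, Pf4 17.5 and 11.4 CPM and Ppbp 5.59 and 1.86 CPM, lower in Aged. In CLPs the same list summed to 35.9 to 37.9 CPM in Young and 116 to 189 CPM in Aged, with 5 of 6 genes higher without overlap, and a list of 5 endothelial genes to 16.3 to 18 CPM in Young and 34.4 to 54.6 CPM in Aged, with 2 of 5 higher without overlap and 1 lower. In MPP3 a list of 8 stromal genes summed to 208 to 211 CPM in Young and 98.3 to 102 CPM in Aged, with 7 of 8 lower without overlap and 4 at the floor in Aged, among them Lepr, which was at 0 in both Aged MPP3 libraries. Cxcl12 averaged 75.3 CPM in Young MPP3 and 1.34 CPM in Aged MPP3. Pdgfrb made up most of the Aged MPP3 sum, at 85.8 CPM on average in Young and 88.1 CPM in Aged. In MPP2 the stromal sums were also lower in Aged, at 169 to 175 CPM in Young and 112 to 113 CPM in Aged, while the Clu libraries overlapped. There 5 of 8 genes were lower without overlap and 1, Pdgfrb, higher, at 70.0 and 80.2 CPM. Cxcl12 averaged 62.4 CPM in Young and 11.5 CPM in Aged MPP2, and Lepr 6.22 and 2.00 CPM. The part of these cells in the Clu values was not tested.

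**Figure D2:**
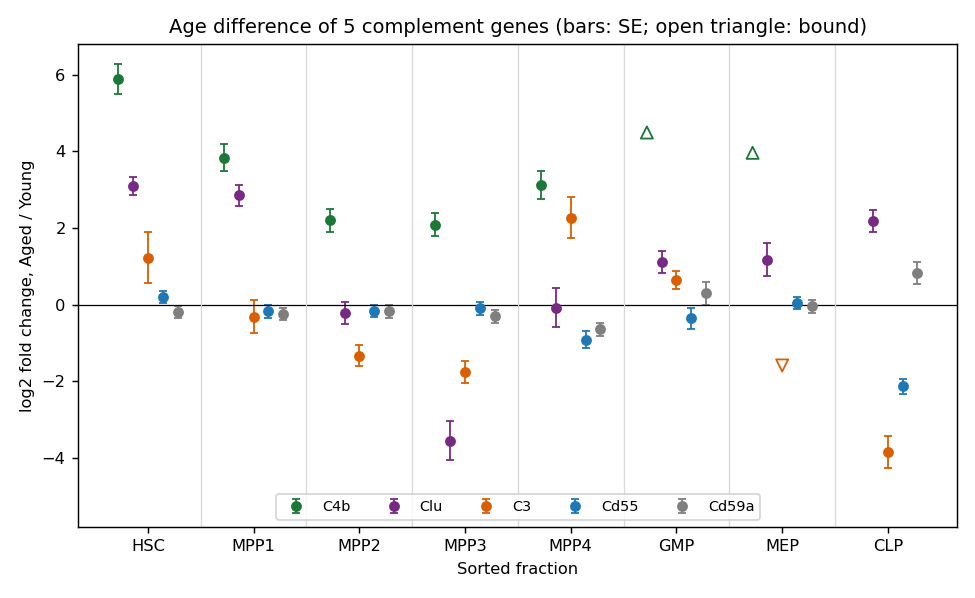
Log2 fold change of Aged over Young for each of the 5 genes in each fraction, with bars of 1 SE. Open triangles are bounds against a floor of 3 counts per library (pointing up for C4b in GMPs and MEPs, pointing down for C3 in MEPs), and C4b in CLPs has no count and no point. C4b lay above 0 wherever it was detected, Clu and C3 lay on both sides of 0, and Cd55 and Cd59a stayed near 0 outside MPP4 and CLPs.

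C3 encodes the central component on which the activation pathways converge. It was highest in GMPs, at 183 and 221 CPM in Young and 325 and 327 CPM in Aged, from 3178 to 4386 counts per library. Next came Young MPP3 at 32.5 and 31.9 CPM, Young MPP2 at 24.8 and 23.5 CPM and Young CLPs at 15.0 and 13.2 CPM. None of these neighbours in the order overlapped.

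In Aged MPP3 C3 was 8.96 and 9.45 CPM and in Aged MPP2 9.79 and 8.80 CPM, all below the Young libraries. Aged CLPs had 4 and 23 counts, or 0.285 and 1.64 CPM, against 190 and 171 counts in Young CLPs. MPP4 went the other way, from 11 and 9 counts in Young (0.727 and 0.722 CPM) to 38 and 53 in Aged (2.82 and 3.83 CPM). MPP3 and MPP2 had the highest C3 of the MPPs at both ages but overlapped with each other in Aged, and MPP4, lowest of the Young MPPs, overlapped with MPP1 in Aged.

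Little C3 was found in the other fractions. HSCs had 0.444 and 0.844 CPM in Young and 0.678 and 2.20 CPM in Aged, and MPP1 had 2.93 and 3.48 CPM in Young and 1.62 and 3.30 CPM in Aged, with overlap in both. Young MEPs had 4 and 19 counts and Aged MEPs 2 and 0.

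The log2 fold change of C3 was -1.33 ± 0.279 in MPP2, -1.76 ± 0.277 in MPP3 and -3.84 ± 0.416 in CLPs, or 0.399, 0.295 and 0.0699 times the Young level, and these passed the threshold. It passed upwards in MPP4, at 2.27 ± 0.543 (4.83-fold). GMPs, at 0.64 ± 0.228 (1.56-fold), did not pass although the Aged libraries were both above the Young ones, and passed when GMPs were fitted alone and at an adjusted p under 0.05. HSCs at 1.22 ± 0.664 and MPP1 at -0.32 ± 0.428 did not pass either, and neither did MEPs. The MPP2 call was lost without any one of the 4 MPP2 libraries and with DESeq2, the MPP4 call without either Young library or the second Aged one, and the CLP call when CLPs were fitted alone.

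Neutrophil and macrophage markers differed along with C3 in several fractions. A list of 6 neutrophil granule and S100 genes summed to 706 to 748 CPM in Young and 259 to 267 CPM in Aged MPP2. In MPP3 it was 1150 CPM in both Young libraries and 181 to 244 CPM in Aged, and in CLPs 531 to 540 CPM in Young and 79.5 to 138 CPM in Aged. All 6 genes were lower in Aged without overlap in each of these 3 fractions, in which C3 was also lower. A list of 10 macrophage genes was at 215 to 221 CPM in Young and 62.0 to 65.0 CPM in Aged MPP2, at 191 to 210 and 58.2 to 61.1 CPM in MPP3, and at 197 to 207 and 53.2 to 77.0 CPM in CLPs. In GMPs, where C3 averaged 202 CPM in Young and 326 CPM in Aged, the neutrophil sums were 228 to 234 CPM in Young and 78.3 to 104 CPM in Aged, the opposite order. In MPP4, where C3 was higher in Aged, the neutrophil sums overlapped, at 29.7 to 36.6 CPM in Young and 35.2 to 37.1 CPM in Aged, and the macrophage sums were lower in Aged, at 107 to 113 and 46.0 to 47.4 CPM. In HSCs the neutrophil sums were 60.5 to 64.3 CPM in Young and 294 to 308 CPM in Aged while C3 overlapped. The part of these cells in the C3 values was not tested.

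**Figure D3:**
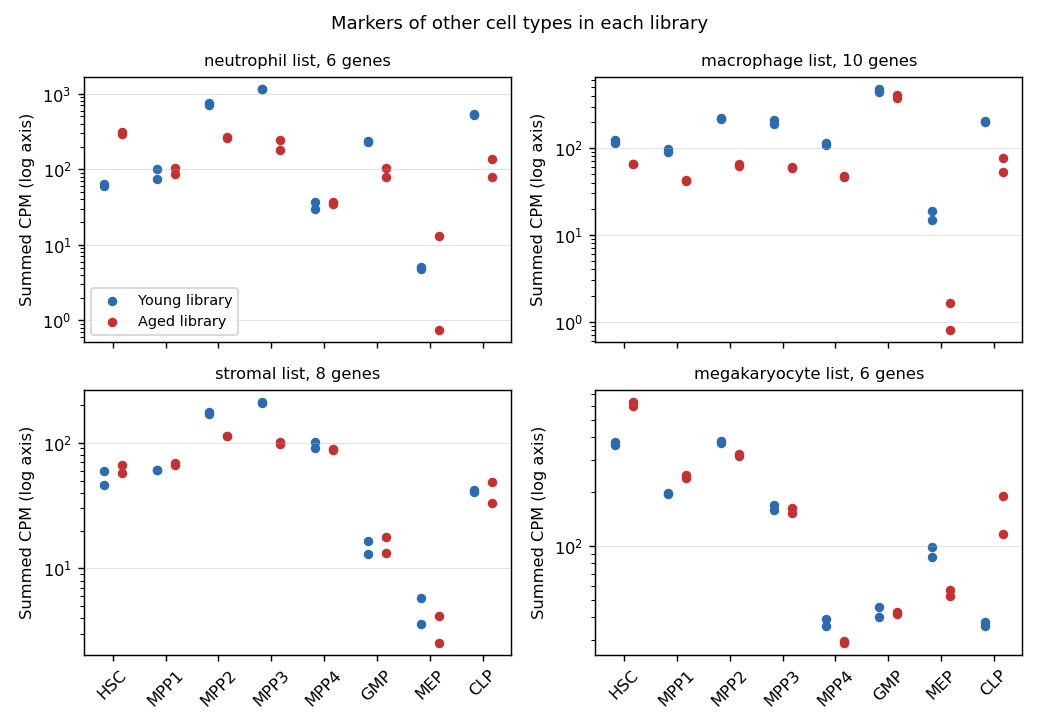
Summed CPM of the neutrophil, macrophage, stromal and megakaryocyte marker lists in each library, by fraction, with a logarithmic axis (Young blue, Aged red). In Aged libraries the neutrophil sum was lower in MPP2, MPP3, GMPs and CLPs and higher in HSCs, the macrophage sum was lower in all 8 fractions, the stromal sum was higher in MPP1 and lower in the other MPPs, and the megakaryocyte sum was higher in HSCs, MPP1 and CLPs and lower in MPP2, MPP4 and MEPs.

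The RefSeq promoter table (GRCm38.p6) holds 3 of the 5 genes, C3, Cd55 and Cd59a. The 250 bases upstream of the C3 start, at chr17:57228137-57228386 on the minus strand, are shown because C3 had its highest level in the myeloid GMPs and because this stretch held 3 matches to the C/EBP letters TTNNGNAA, the binding pattern of a family of myeloid and acute-phase transcription factors. The sequence is written 5′ to 3′ in the direction of transcription and the 3 matches are in capitals.
C3: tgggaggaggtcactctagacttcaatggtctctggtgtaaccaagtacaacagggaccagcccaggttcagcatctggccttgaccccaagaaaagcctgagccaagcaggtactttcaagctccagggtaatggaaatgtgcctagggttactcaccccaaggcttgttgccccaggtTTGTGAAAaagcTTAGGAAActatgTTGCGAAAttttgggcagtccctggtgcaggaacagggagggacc

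Counted from the transcription start, the matches lie at -70 to -63, -58 to -51 and -45 to -38 and do not overlap each other. The C/EBP letters were found in 36.8% of all 32851 promoters in the table, searched on both strands. Also searched were the STAT letters TTCNNNGAA (7.02% of promoters), the CRE TGACGTCA (1.55%), the AP-1 letters TGANTCA (6.75%) and the GATA letters AGATAA (9.99%). None of these was found in the C3 stretch, and none of the 5 patterns in the stretches of Cd55 and Cd59a, which were 64.0% and 44.8% G and C against 52.0% for C3. A match is a description of the letters only.

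Cd55, the membrane-anchored regulator that speeds the decay of C3 convertases, was highest in MEPs, with 28.8 and 36.9 CPM in Young and 35.1 and 32.2 CPM in Aged, and in HSCs, with 26.0 and 29.0 CPM in Young and 32.4 and 29.0 CPM in Aged. The ages overlapped in both. MPP1 had 20.7 and 24.3 CPM in Young and 20.7 and 17.9 CPM in Aged, MPP2 21.6 and 21.1 CPM in Young and 17.8 and 18.8 CPM in Aged, and MPP3 12.4 and 12.5 CPM in Young and 9.93 and 12.6 CPM in Aged. From HSCs through MPP1, MPP2 and MPP3 to MPP4 the means of Cd55 stepped down at each age, with overlap between MPP1 and MPP2.

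Larger differences in Cd55 were seen in MPP4 and CLPs. In MPP4, 74 and 60 counts in Young (4.89 and 4.81 CPM) became 27 and 39 in Aged (2.00 and 2.81 CPM). In CLPs, 165 and 230 counts in Young (13 and 17.7 CPM) became 42 and 55 in Aged (3.00 and 3.93 CPM). The Aged libraries were below the Young ones in both. GMPs were lowest at both ages, at 1.61 and 1.92 CPM in Young and 1.52 and 1.34 CPM in Aged.

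The log2 fold change of Cd55 was -2.13 ± 0.193 in CLPs and -0.92 ± 0.221 in MPP4, or 0.228 and 0.529 times the Young level, and both passed the threshold. In the other 6 fractions it ran from -0.36 ± 0.270 in GMPs to 0.20 ± 0.161 in HSCs, and none passed. The MPP4 call was lost without either Young library or the first Aged one, and both calls were lost when the fractions were fitted alone. In CLPs the 5 B cell genes summed to 2070 to 2110 CPM in Young and 933 to 977 CPM in Aged, with 5 of 5 lower without overlap. The part of B-lineage cells in the CLP value of Cd55 was not tested.

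Cd59a encodes the glycolipid-anchored protein that stops the membrane attack complex from forming. Its highest level was in HSCs, at 45.9 and 54.0 CPM in Young and 40.2 and 44.5 CPM in Aged. MPP1 had 41.2 and 44.8 CPM in Young and 37.0 and 34.0 CPM in Aged, and MPP2 34.9 and 35.4 CPM in Young and 29.2 and 30.5 CPM in Aged. MPP3 had 30.8 and 32.1 CPM in Young and 23.4 and 25.5 CPM in Aged. The Aged libraries lay below the Young ones in each of these fractions.

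In MPP4, Cd59a was 23.6 and 25.5 CPM in Young and 14.7 and 14.8 CPM in Aged, again with the Aged libraries lower. MEPs, at 16.1 and 20.7 CPM in Young and 19.7 and 15.7 CPM in Aged, overlapped. GMPs and CLPs had little, 1.78 and 1.30 CPM in Young and 1.90 and 2.01 CPM in Aged GMPs, and 1.65 and 1.46 CPM in Young and 1.78 and 3.72 CPM in Aged CLPs. In these last 2 fractions the Aged libraries were the higher ones.

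The log2 fold change of Cd59a passed the threshold only in MPP4, at -0.65 ± 0.170 (0.637 times the Young level), and that call was lost without any one of the 4 MPP4 libraries. It was -0.19 ± 0.158 in HSCs, -0.24 ± 0.159 in MPP1, -0.18 ± 0.161 in MPP2 and -0.31 ± 0.163 in MPP3. CLPs stood at 0.83 ± 0.286 and GMPs at 0.29 ± 0.289. None of these passed, but the CLP difference did without the first Aged CLP library. In MPP4 the macrophage list summed to 107 to 113 CPM in Young and 46.0 to 47.4 CPM in Aged, with 8 of 10 genes lower without overlap and 1 higher. The endothelial list summed to 35.9 to 40.1 CPM in Young and 16 CPM in both Aged libraries, with 3 of 5 lower without overlap. Most of that sum was Emcn, at 29.2 CPM on average in Young and 12.7 CPM in Aged, while Cdh5 had no count in Young. Whether these sums came from such cells was not tested, nor was the part of such cells in the MPP4 values of Cd59a and Cd55.

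Because a long gene yields more reads than a short one, levels of different genes were set side by side only per kilobase of exon. In Young HSCs Cd59a was the highest of the 5 at 27.6 CPM per kilobase, followed by Clu at 7.98, Cd55 at 5.66, C4b at 0.177 and C3 at 0.125 CPM per kilobase. In Aged HSCs Clu was first at 65.8 CPM per kilobase, above Cd59a at 23.4, C4b at 9.73, Cd55 at 6.33 and C3 at 0.280 CPM per kilobase. In GMPs C3 was first at both ages, at 39.2 CPM per kilobase in Young and 63.4 in Aged, and the next gene was Clu at 0.871 in Young and 1.95 in Aged. The 2 membrane regulators were thus ahead of C3 in HSCs, and behind it in GMPs.

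Across the 32 libraries the tested genes whose log2 CPM followed each member most closely were taken by Pearson's r, as a description over libraries that share their groups. For C3 they were Igsf6 (r = 0.957), Hp (0.951), which encodes the acute-phase protein haptoglobin, and Clec5a (0.939), a myeloid lectin receptor. For Cd59a they were Pdgfd (0.971), Plscr4 (0.963) and Adgrd1 (0.958), and for Cd55 Otub2 (0.923), Pdlim1 (0.901) and Tmem64 (0.896). C4b was followed by Pfkl (0.878), Aspa (0.874) and Apob (0.846), and Clu by Tdrd9 (0.832), Scx (0.817) and Rgn (0.812). The coefficients of C4b and Clu were lower than those of the other 3 genes.

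The rest of the complement system was read from a list of 48 other genes, of which 26 were tested, 22 did not pass the filter on low counts and 9 of those had no count in any library. Over the 8 fractions, 3 gene-by-fraction differences of the 26 tested genes passed the threshold upwards and 37 downwards, out of 208, and 12 of the 26 genes passed in at least 1 fraction. Of all tested genes 3.74% to 10.3% per fraction were called higher and 1.66% to 11.7% lower. By fraction, 1 gene rose and 1 fell in HSCs and likewise in MPP1, 4 fell in MPP2, 1 rose and 10 fell in MPP3, 5 fell in MPP4, 4 in GMPs and 6 each in MEPs and CLPs. For a median, genes at the floor in 1 group were set to their bound. Those at it in both groups, or with a mean not above it in the other group, were left out. The median log2 fold change of the list was then 0.06 in HSCs, -0.06 in MPP1, -0.60 in MPP2 and -0.86 in MPP3. By the same measure MPP4 stood at -0.21, GMPs at -0.30, MEPs at -1.15 and CLPs at -0.58, and 15 to 25 genes entered per fraction. From the fitted values of all 26 genes it was -1.44 in CLPs and -0.08 in MEPs. The median of all tested genes was between -0.04 and 0.02 in every fraction.

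Of the 37 lower calls, 25 were in the 7 tested recognition genes. Fcna, which encodes ficolin A, a lectin pathway recognition molecule, was lower in Aged in all 8 fractions. It fell from 22.6 CPM in Young CLPs to no count in Aged, a log2 fold change of -6.72 or lower (adjusted p = 3.49e-10, edgeR quasi-likelihood test), from 18.3 to 3.89 CPM in MPP2 (-2.18 ± 0.269, adjusted p = 4.06e-05) and from 12.5 to 1.77 CPM in MPP3 (-2.78 ± 0.294, adjusted p = 3.03e-06). In MPP4 it fell from 6.58 to 0.625 CPM (-3.30 ± 0.345, adjusted p = 1.67e-06), in MPP1 from 4.10 to 0.648 CPM (-2.59 ± 0.352, adjusted p = 7.09e-05) and in HSCs from 5.44 to 1.30 CPM (-1.99 ± 0.314, adjusted p = 0.000349). GMPs went from 2.65 CPM to no count (adjusted p = 5.45e-07) and MEPs from 0.642 CPM to no count (adjusted p = 0.000294). Fcna thus fell in HSCs and MPP1, where C4b and Clu were higher.

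The 3 genes of C1q, the recognition molecule of the classical pathway, also fell: C1qa in 6 fractions, C1qb in 5 and C1qc in 4. In CLPs C1qa fell from 17.8 to 0.214 CPM (-6.30 ± 0.484 on the log2 scale, adjusted p = 3.22e-08). In MPP4 C1qb fell from 9.20 to 2.42 CPM (-1.84 ± 0.359, adjusted p = 0.000753) and C1qa from 7.12 to 1.94 CPM (-1.78 ± 0.361, adjusted p = 0.00103). In MPP2 C1qa fell from 16.6 to 6.25 CPM (-1.36 ± 0.318, adjusted p = 0.0063), a call lost without any one of the 4 MPP2 libraries. In Aged GMPs C1qb and C1qc had no count, against 2.33 and 1.91 CPM in Young (adjusted p = 1.51e-05 and 0.000201), and in Aged MEPs C1qa and C1qb had none, against 0.779 and 0.852 CPM (adjusted p = 0.000906 and 0.00128). Leaving out 1 library also ended the MPP4 calls of C1qa (either Aged library) and C1qb (the second Aged one) and the MEP calls of C1qb (the first Young or either Aged library) and C1qa (the second Aged one). When a fraction was fitted alone, the HSC call of Fcna and the GMP calls of C1qb and C1qc were lost. C1q is made mainly by macrophages, and the macrophage marker sum was lower in Aged libraries of all 8 fractions. In MEPs it was 14.8 to 18.9 CPM in Young and 0.801 to 1.65 CPM in Aged, with 8 of 10 genes at the floor in Aged. The part of macrophage RNA in these falls was not tested.

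Fcnb, a ficolin of myeloid cells, fell in CLPs and in MPP3, there from 10.6 to 1.41 CPM (-2.86 ± 0.467, adjusted p = 0.000264). C1ra, a protease of the C1 complex, rose in MPP3, and C1rl did not pass in any fraction. Of the convertase group, Cfp, which encodes properdin, the stabiliser of the alternative pathway convertase, fell in MPP3, MEPs and MPP2, in the last from 34.5 to 15.4 CPM (-1.11 ± 0.205, adjusted p = 0.000866), while Cfb passed in none. The MPP2 fall of Cfp was lost without either Young library or the second Aged one. The neutrophil sums were lower in Aged MPP2, MPP3 and CLPs, and the B cell sum in Aged MEPs, as given above. In CLPs Cfp averaged 129 CPM in Young and 183 CPM in Aged and did not pass. The part of such cells in the Fcnb and Cfp values was not tested. No tested gene of the terminal pathway (C7, C8a and C8g) passed in any fraction.

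All 8 receptor genes were tested, with 1 call higher and 7 lower. Itgam, the alpha chain of complement receptor 3, which is also the myeloid antigen CD11b, rose from 12.4 to 36.0 CPM in HSCs (1.57 ± 0.167, adjusted p = 1.65e-06) and fell in MPP3 and MEPs. Its partner Itgb2 fell in MPP2, MPP3, MPP4 and MEPs. C5ar2 fell in CLPs from 2.22 CPM to no count (adjusted p = 0.00616), a call lost without any one of the 4 CLP libraries, and C3ar1, C5ar1, Cr2, Itgax and Vsig4 passed in none. The neutrophil marker sum stood higher in Aged HSCs and lower in Aged MPP2 and MPP3, the macrophage sum was lower in all Aged fractions and the B cell sum was lower in Aged MEPs, as given above. The part of such cells in the receptor values was not tested.

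Of the 6 regulators tested beside the members, Serping1, which encodes the inhibitor of the C1 proteases, rose from 0.595 to 4.29 CPM in MPP1 (2.87 ± 0.596, adjusted p = 0.0036) and fell in MPP3. The MPP1 rise was lost without any one of the 4 MPP1 libraries. The stromal marker sum was 60.2 to 60.3 CPM in Young and 67.0 to 68.5 CPM in Aged MPP1. There 2 of its 8 genes were higher without overlap and 1 lower. Pdgfrb averaged 25.5 CPM in Young and 37.0 CPM in Aged MPP1, and Col1a2 28.4 and 21.3 CPM. In MPP3 the sum was lower in Aged, as given above. The part of stromal cells in the Serping1 values was not tested. Cr1l, also called Crry, a rodent membrane regulator of C3 convertases, was measured at 70.3 to 152 CPM in all 16 groups and passed in no fraction. Cd59b, Cpn1 and Susd4 passed in none.

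**Figure D4:**
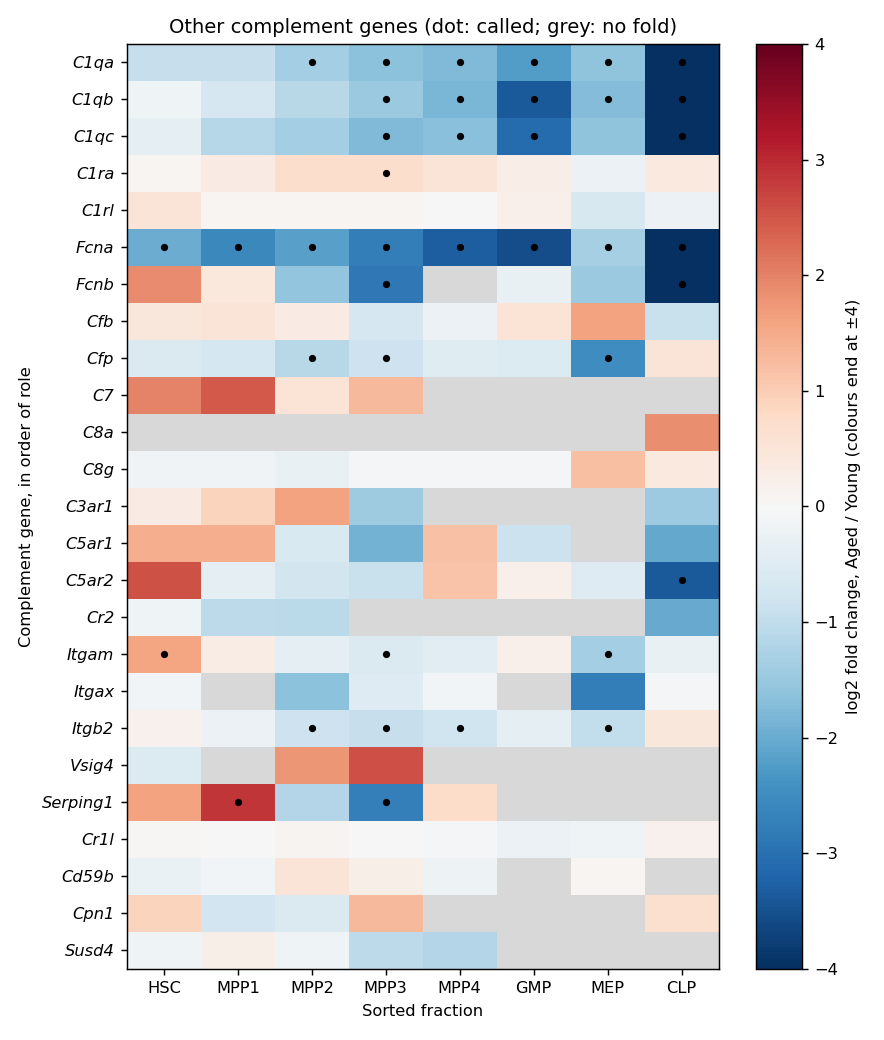
Log2 fold change of Aged over Young for 25 of the 26 tested genes of the wider complement list (rows, in order of role) in the 8 fractions (columns). Red is higher and blue lower in Aged, and a dot marks a difference that passed the threshold. Genes at the floor in 1 age and above it on average in the other are drawn at their bound, and grey marks cells without a fold. The dots are mostly in the C1q and ficolin rows at the top, and Fcna carries one in each of the 8 fractions.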

How the data were processed

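The authors made SMARTer cDNA libraries, sequenced single reads, aligned them with TopHat2 (2.0.13) and Bowtie2 (2.1.0) to mm10 and counted reads per gene with StringTie. The deposited table used here holds raw counts as whole numbers per gene and library. Use of strand is not given in the sources used here. A second table of DESeq2-normalized counts and 8 tables of the authors' own comparisons (fold changes and p-values) were not used. Genes passing edgeR's filterByExpr over 16 groups were scaled by TMM (factors 0.807 to 1.11) and fitted with the quasi-likelihood model (edgeR 4.0.16, R 4.3.3) with 1 mean per group over all 32 libraries, which left 16 residual degrees of freedom. The 8 contrasts were Aged minus Young, two-sided. SE is the absolute log2 fold change over the square root of F. Bounds set the mean of 1 age against a floor of 3 counts per library in the other and cover counting error only. They leave out the spread between libraries. Likeness used log2 CPM with a prior count of 2. Exon lengths are unions of exons, and alignments used Biopython 1.88. Named are all 5 members and, of the list, at most 3 called genes per fraction by absolute log2 fold change, other list genes by their calls. Cr1l and the marker genes with values, and C1ra, were added after their values were seen. The members and lists were chosen with earlier results of these data known. Alternatives were DESeq2 (1.42.0) and its size factors, no filter, a fit of 4 libraries, a replicate block, summed copies, an adjusted p under 0.05, and each library left out. The result of 1 list gene, which the counts include, is not reported here.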

Additional observations from a re-analysis of the deposited data

Results flagged for a closer look

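For Clu, the age difference passed the threshold in opposite directions in different fractions, with every Aged library on one side of the Young libraries in each. On the log2 scale it was 3.09 in HSCs, 2.85 in MPP1, 1.11 in GMPs and 2.18 in CLPs, against -3.55 in MPP3. C3 likewise was higher in Aged MPP4, at 2.27, and lower in MPP2 at -1.33, in MPP3 at -1.76 and in CLPs at -3.84. The difference between fractions was not tested in either gene.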

How the results depend on the processing

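Among the differences followed through the alternatives, none that passed the threshold reversed direction. Differences that did not pass did not always keep their sign. For Cd55 in MEPs the log2 fold change was 0.04, and -0.04 with no filter on low counts. The 5 genes had 19 calls out of 40 with DESeq2 size factors, no filter, the replicate block and summed copies. They had 18 with DESeq2, 14 with fits of 4 libraries and 22 at an adjusted p under 0.05. Leaving out each library gave 16 to 20. Calls higher among the other complement genes numbered 3, but 6 with fits of 4 libraries, 10 with DESeq2 and 12 at an adjusted p under 0.05, and 1 to 6 when a library was left out (1 without Young MPP1 replicate 1, 6 without Young MEP replicate 1, and 5 without Young MEP replicate 2 or Aged CLP replicate 2). Their 37 lower calls became 33 to 48 under the other alternatives and 27 to 39 when a library was left out. Within a fraction, Young and Aged libraries of the same replicate number shared little deviation from their group means (correlations -0.0557 to 0.0704). Whether libraries of the same age and number shared deviations across fractions was not checked, and the model treats all libraries as independent. With the replicate block the list had 3 higher and 33 lower calls. Differences near the floor of 3 counts are not detectable at this depth, and with 2 libraries a group the spread is borrowed across groups.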
